A study of Danio rerio with 8 samples.

Results

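Double-positive cells of zebrafish embryonal rhabdomyosarcoma, which show both a GFP and an mCherry reporter, were compared with mCherry-only cells of the same tumours. The comparison uses 4 of the series' 8 arrays, namely 2 arrays of GFP+/mCherry+ cells (double-positive) and 2 arrays of GFP-negative/mCherry+ cells (mCherry-only). The arrays were chosen by their labels and paired by tumour number, and all 15502 probe sets were compared. Each of 2 tumours gave 4 sorted populations, the other two being GFP+/mCherry-negative cells (GFP-only) and GFP-negative/mCherry-negative cells (double-negative). All populations came from transgenic fish of the CG1 strain, outcrossed 4 times, that carried the reporters myf5-GFP and mylz2-mCherry and had received rag2-kRAS12D by injection as one-cell embryos. The oncogene was thus driven by the rag2 promoter, and the tumours were grown in syngeneic recipients without fluorescent reporters and taken at over 20 days after transplantation. The cells were sorted in repeated rounds of flow cytometry, and each population has 1 array per tumour (n = 2 tumours). The labels give no age or sex of the fish, and the reporters' own transcripts and the kRAS12D transgene were not analysed here. As set up here, the comparison asks whether the early myogenic reporter separates molecularly different cells among those that also show the differentiation reporter.

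Rhabdomyosarcoma is a tumour whose cells express genes of developing skeletal muscle. In normal muscle, Myf5 is a transcription factor that commits progenitors to the myogenic lineage, and Myog acts later, when myoblasts leave the cell cycle, fuse and build the contractile apparatus. The mylz2 gene, now named mylpfa, codes for a fast muscle myosin light chain that is abundant in differentiated fibres. Tumours also hold other cell types, among them macrophages, phagocytes that express the receptor of colony-stimulating factor 1, complement C1q, scavenger receptors and lysosomal cathepsins.

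Values are the deposited log-scale signals, read here as log2 because the base is not given in the sources used here. Array medians lay between 4.54 and 4.71 and lower quartiles between 3.38 and 3.75. A difference is double-positive minus mCherry-only with its standard error (SE) from limma, and a probe set is called where the p-value, after Benjamini-Hochberg adjustment across the 15502 probe sets, is under 0.05. A nominal p is the p-value before that adjustment. Where values are given in pairs, tumour 1 comes before tumour 2. The mCherry-only array of tumour 2 stood apart. Its rank correlation across probe sets was 0.670 with the double-positive array of the same tumour, against 0.872 between the same populations of tumour 1. The double-negative array of tumour 2 stood apart too, at 0.666 with double-positive and 0.779 with mCherry-only cells of that tumour. An alternative fit leaves out both arrays, which leaves 1 mCherry-only array, 1 double-negative array and 1 residual degree of freedom. The median absolute difference between double-positive and mCherry-only values was 0.82 in tumour 2 and 0.44 in tumour 1. No folds are given, because the low side of many large differences lay near the bottom of the array's range and signal over background was not analysed here.

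Both populations had high levels of fast muscle transcripts, and the myf5 gene itself did not separate them. The signal of mylpfa was 10.71 and 10.87 in double-positive cells, against 10.80 and 9.21 in mCherry-only cells. The values overlapped, with a difference of 0.79 ± 0.58 (adjusted p = 0.643), and both populations lay above GFP-only cells (7.40 and 6.23) and double-negative cells (4.58 and 4.73). A second mylpfa probe set read 11.04 and 9.50 in double-positive cells, against 10.99 and 7.56 in mCherry-only cells (adjusted p = 0.613). The creatine kinase gene ckma was at 11.41 and 10.93 in double-positive cells, against 11.39 and 10.05 in mCherry-only cells. For myf5 the values were 3.81 and 6.02 in double-positive cells, against 3.28 and 4.34 in mCherry-only cells. The myf5 level was higher in the double-positive array of each tumour, but the double-positive array of tumour 1 lay below the mCherry-only array of tumour 2. The difference of 1.11 ± 0.63 did not pass the test (adjusted p = 0.530).

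Of the 15502 probe sets, 129 fell (0.832%) and 4 rose (0.0258%) in double-positive cells relative to mCherry-only cells. All 133 (0.858%) had the same sign in both tumours, and in all 133 the values of the populations did not overlap. The 133 were called for large differences on these same arrays, so both counts are a description and nothing is read from them. Of all probe sets, 29.5% were higher and 28.5% lower in both tumours (32.8% and 27.3% of all named genes), and without overlap 19.5% lay above and 19.4% below. Among the 8793 named genes, each read from its probe set with the highest mean, 83 fell (0.944%) and 2 rose (0.0227%). The differences of the probe sets that fell ran from -4.88 to -2.42. Of the 83 genes, 34 belong to any of the 30 gene lists used here. The lists of macrophage, antigen presentation and lysosome, granulocyte, or leukocyte cytoskeleton genes hold 29 of them. These 4 lists hold 24, 30, 12 and 23 of all named genes, in that order. All lists were chosen with earlier results of these data known. With a nominal p under 0.05 the balance was the other way, with 1068 probe sets higher (6.89%) and 817 lower (5.27%). When any 1 of the 4 arrays compared was left out alone, no call was kept. Such a fit leaves a population with 1 array. Without the tumour as a block 51 probe sets were lower and 0 higher, and without the tumour 2 arrays of mCherry-only and double-negative cells the counts were 76 lower and 2 higher.

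Among the 30 gene lists, the macrophage list held the most genes that fell. Of 24 macrophage genes measured, 17 fell and 0 rose, against 0.944% and 0.0227% of all named genes. The list's median difference was -3.72, against 0.03 over all named genes. The median was -3.60 in tumour 1 and -3.48 in tumour 2, and in 22 of the 24 genes both double-positive arrays lay below both mCherry-only arrays, as in 18.6% of all named genes. Averaged over the list, the level was 4.43 and 4.47 in double-positive cells, against 7.76 and 7.78 in mCherry-only cells, and no member was listed at 0 in these 4 arrays. The 17 became 12 without the tumour as a block and 11 with low values raised to each array's lower quartile. Without the tumour 2 arrays of mCherry-only and double-negative cells, which leaves 1 mCherry-only array, the list's median was -3.68. In sorted bulk cells, fewer cells of a type and less RNA per cell cannot be told apart.

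The regulators of the macrophage lineage fell with the others. The signal of spi1b, which codes for the myeloid transcription factor Pu.1, was 3.60 and 4.07 in double-positive cells, against 8.03 and 8.46 in mCherry-only cells. All 4 values kept the populations apart, with a difference of -4.41 ± 0.64 (adjusted p = 0.0160, or 0.0778 with low values raised to the lower quartile), and a second spi1b probe set differed by -2.28 (adjusted p = 0.104). For csf1ra, a receptor of colony-stimulating factor 1, the values were 4.41 and 5.03 in double-positive cells, against 8.82 and 8.12 in mCherry-only cells. That difference was -3.75 ± 0.62 (adjusted p = 0.0242). It was not called without the tumour as a block (adjusted p = 0.0750) or with low values raised to the lower quartile (0.0552).

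Surface and recognition genes showed the same split. The scavenger receptor gene marco was at 5.99 and 5.28 in double-positive cells, against 9.91 and 9.67 in mCherry-only cells (-4.16 ± 0.58, adjusted p = 0.0156). The C1q chain gene c1qc was at 4.56 and 4.51 in double-positive cells, against 8.89 and 8.71 in mCherry-only cells (-4.27 ± 0.55, adjusted p = 0.0137). Replicates of each population thus lay within less than 1 log2 unit of each other for both genes, with a gap of several units between the populations. The integrin gene itgae.2 had the largest difference of all named genes that were called, with 1.34 and 1.75 in double-positive cells, against 6.21 and 6.64 in mCherry-only cells (-4.88 ± 0.68, adjusted p = 0.0156). Its double-positive values lay under the arrays' lower quartile, and it was not called when low values were raised to that quartile (adjusted p = 0.173). The chemokine gene ccl34b.1 was at 4.74 and 5.13 in double-positive cells, against 8.62 and 9.67 in mCherry-only cells (-4.21 ± 0.61, adjusted p = 0.0159).

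Secreted proteins, phagocyte oxidase subunits and lipid carriers were among the other macrophage genes that fell. The granulin gene grna.1 was at 2.30 and 2.67 in double-positive cells, against 7.21 and 7.26 in mCherry-only cells (-4.75 ± 0.56, adjusted p = 0.0130). A second granulin, grna, differed by -3.71, and lgals3bp.1, a secreted galectin-binding protein with a scavenger receptor domain, also by -3.71. The oxidase subunit gene ncf1 was at 3.37 and 3.92 in double-positive cells, against 8.22 and 7.81 in mCherry-only cells (-4.37 ± 0.55, adjusted p = 0.0137). Its membrane partner cyba differed by -3.36 (adjusted p = 0.0231), and a second cyba probe set by -2.14, which was not called (adjusted p = 0.0848). The apolipoprotein genes apoc1 and apoeb differed by -3.74 and -3.25. The actin-severing scinderin gene scinlb was at 2.30 and 2.83 in double-positive cells, against 6.42 and 7.31 in mCherry-only cells (-4.30 ± 0.47, adjusted p = 0.0117). The amino acid transporter gene slc7a7, the fibrinogen-like gene fgl2a and the glutamine synthetase gene glula completed the 17, with differences between -3.86 and -3.44. Of the 7 macrophage genes that were not called, cd68 was closest (-2.40, adjusted p = 0.0643), while the oxidase subunit gene ncf4 differed by 0.10 with overlapping values. Without the tumour as a block apoc1, apoeb, cyba and glula were not called either (adjusted p between 0.0567 and 0.127), without the tumour 2 arrays of mCherry-only and double-negative cells apoeb and glula were not (0.0789 and 0.0763), and with low values raised spi1b, grna.1, apoc1 and cyba were not (0.0570 to 0.0778).

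**Figure D1:**
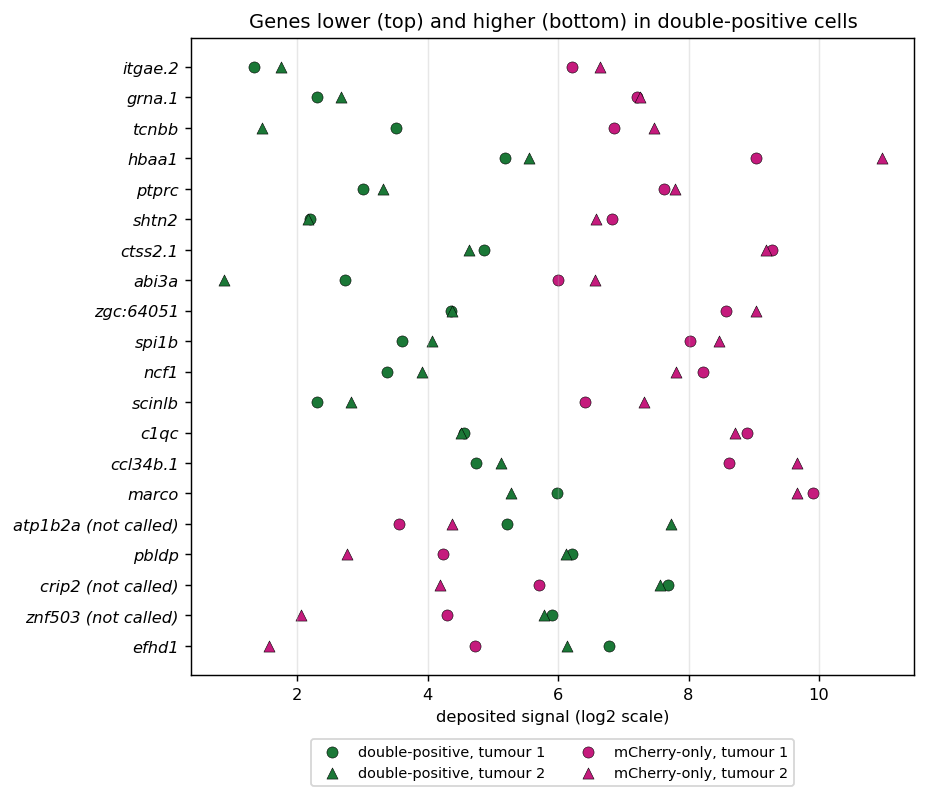
Deposited signal (log2 scale) of 20 genes on each double-positive (green) and mCherry-only (magenta) array, circles for tumour 1 and triangles for tumour 2. The 15 genes at the top fell in double-positive cells, from itgae.2 (-4.88) to marco (-4.16); at the bottom are pbldp and efhd1, which rose, and 3 genes marked as not called.

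Genes of antigen presentation and the lysosome formed a second group. Of 30 measured, 5 fell and 0 rose, against 0.944% and 0.0227% of all named genes. The median difference was -1.81 (-1.62 in each tumour). With a nominal p under 0.05, 17 were lower and 0 higher, against 5.36% and 8.1% of all named genes. The cathepsin S gene ctss2.1, whose product cleaves the invariant chain of class II molecules, was at 4.86 and 4.64 in double-positive cells, against 9.28 and 9.19 in mCherry-only cells. Each population varied little between tumours, and the gene differed by -4.49 ± 0.48 (adjusted p = 0.0117). Its relative ctss2.2 differed by -3.39, the cathepsin genes ctsz and ctsba by -3.07 and -2.97, and laptm5, a lysosomal membrane protein of blood cells, by -3.84. The genes ctsz and ctsba were not called without the tumour as a block (adjusted p = 0.0538 and 0.0567) or without the tumour 2 arrays of mCherry-only and double-negative cells (0.117 and 0.138). The invariant chain genes cd74a and cd74b did not pass, with differences of -2.50 and -2.34 (adjusted p = 0.0656 and 0.137). The level of cd74a was high in both populations, at 8.52 and 9.30 in double-positive cells, against 11.29 and 11.53 in mCherry-only cells.

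The median of the leukocyte cytoskeleton and signalling list was -2.15. Of its 23 genes 6 fell and 0 rose, against 0.944% and 0.0227% of all named genes. The clearest was ptprc, the gene of the common leukocyte antigen CD45, at 3.01 and 3.31 in double-positive cells, against 7.62 and 7.80 in mCherry-only cells. The populations lay more than 4 log2 units apart in each tumour (-4.55 ± 0.49, adjusted p = 0.0117). The coronin gene coro1a differed by -3.75 (adjusted p = 0.0137), but its other probe set, at low signal, differed by 0.35. The Wiskott-Aldrich gene wasb, which drives Arp2/3 actin branching, differed by -3.51, the Arp2/3 subunit gene arpc1b by -2.76 and the adaptor gene samsn1a by -3.12. Of these, ptprc and coro1a were also called without the tumour as a block, and wasb, arpc1b and samsn1a were not (adjusted p between 0.0567 and 0.142). Those 3 were not called without the tumour 2 arrays of mCherry-only and double-negative cells either (0.164 to 0.265), and wasb and arpc1b were not with low values raised (0.0773 and 0.0667). The L-plastin gene lcp1 was just outside the threshold (-3.68 ± 0.72, adjusted p = 0.0538). Of 7 genes of the Cxcr4 chemokine receptor list, 1 fell: cxcr4b, at 5.18 and 5.43 in double-positive cells, against 8.92 and 9.27 in mCherry-only cells (-3.79 ± 0.50, adjusted p = 0.0137). The ligand gene cxcl12a was not called, with 5.74 and 3.92 in double-positive cells, against 4.40 and 2.14 in mCherry-only cells.

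The other 4 of the 15 largest decreases lay outside the lists. The vitamin B12 carrier gene tcnbb was at 3.52 and 1.46 in double-positive cells, against 6.85 and 7.47 in mCherry-only cells (-4.67 ± 0.77, adjusted p = 0.0237). The shootin gene shtn2 was at 2.2 and 2.17 in double-positive cells, against 6.82 and 6.58 in mCherry-only cells (-4.52 ± 0.50, adjusted p = 0.0117). The Abl interactor gene abi3a differed by -4.48 and the gene zgc:64051 by -4.44. In each of these genes the mCherry-only values were high in both tumours and the double-positive values near or under the arrays' lower quartile, except zgc:64051 at 4.35 and 4.38. With low values raised to that quartile tcnbb and abi3a were not called (adjusted p = 0.174 and 0.0675), and tcnbb was not called without the tumour as a block (0.0653). Among the remaining genes that fell, the following were chosen after their values were seen: slc40a1, the iron exporter ferroportin (-3.94), cfp, the complement factor properdin (-3.78), vsir, an immune checkpoint receptor (-3.84), and the lysosomal genes smpd1 (-3.18), tcirg1b (-2.97) and gm2a (-2.57). Of these, smpd1 and gm2a were not called without the tumour as a block (adjusted p = 0.0567 and 0.138), and smpd1, tcirg1b and gm2a not without the tumour 2 arrays of mCherry-only and double-negative cells (0.0888 to 0.174).

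Lists of other blood and vessel cells had 0 to 2 calls each. For scale, 0.944% of all named genes fell. The granulocyte, erythroid and endothelial lists lay above that share, on 1 or 2 genes each. Of 12 granulocyte genes 2 fell, namely ncf1, which is also in the macrophage list, and the proteoglycan gene srgn (-3.88 ± 0.65, adjusted p = 0.0250). The call of srgn was lost without the tumour as a block (adjusted p = 0.05001) and without the tumour 2 arrays of mCherry-only and double-negative cells (0.0882). The neutrophil lysozyme gene lyz was low in both populations, at 1.69 and 3.43 in double-positive cells, against 1.85 and 3.60 in mCherry-only cells. Both lay far under the double-negative values of 10.81 and 10.57. Of 29 erythroid and thrombocyte genes 2 fell: the alpha globin gene hbaa1, at 5.18 and 5.56 in double-positive cells, against 9.03 and 10.96 in mCherry-only cells (-4.63 ± 0.67, adjusted p = 0.0159), and the nucleotidase gene nt5c2l1 (-2.66, adjusted p = 0.0498). With low values raised to the lower quartile neither was called (adjusted p = 0.0570 for hbaa1 and 0.596 for nt5c2l1), and nt5c2l1 was not called without the tumour as a block (0.142) or without the tumour 2 arrays of mCherry-only and double-negative cells (0.462). The list's median was -0.44, and in 11 of the 29 genes both double-positive arrays lay below both mCherry-only arrays, as in 18.6% of all named genes. The carbonic anhydrase gene cahz differed by -2.51 without overlap (adjusted p = 0.226), while the heme synthesis gene alas2 (-0.53) and the transcription factor gene klf1 (-0.15) had overlapping values. Of 14 endothelial genes 1 fell, the mannose receptor gene mrc1a, whose values were low throughout at 0.64 and 0.97 in double-positive cells, against 4.43 and 3.79 in mCherry-only cells. It was not called with low values raised to the lower quartile (adjusted p = 0.601) or without the tumour as a block (0.0567). None of 11 lymphocyte genes was called by limma, and 1 was lower with a nominal p under 0.05 (5.36% of all named genes). The gene ikzf1, a transcription factor of lymphoid and other blood cells, came closest (-2.68, adjusted p = 0.0565). The level of rag2, whose promoter drives the oncogene, was 3.17 and 2.78 in double-positive cells, against 2.28 and 2.01 in mCherry-only cells (0.83, adjusted p = 0.531).

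The other 2 populations place the genes that fell on a wider scale. Of the 83 genes, 71 were highest on average in mCherry-only cells (31% of all named genes) and 12 in double-negative cells. The 83 were called for higher values in mCherry-only than in double-positive cells, so that count is a description and nothing is read from it. The double-positive mean exceeded the GFP-only mean in 61 of the 83 (50.3% of all named genes). Over the macrophage list the average level in GFP-only cells was 3.29 and 3.27, below the 4.43 and 4.47 of double-positive cells, and that of double-negative cells was 5.66 and 4.67. The same contrast of GFP+ with GFP-negative cells can be read among cells without mCherry, as GFP-only minus double-negative, which shares no array with it. In 70 of the 83 genes GFP-only cells were below double-negative cells in both tumours, as in 27.6% of all named genes. Both contrasts come from the same 2 tumours, and the GFP-negative side of each holds a tumour 2 array that stood apart. The part of these arrays in that count was not tested.

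The interaction, the difference among mCherry+ cells minus that among mCherry-negative cells, was called for 0 of 15502 probe sets by limma (0%), with 624 with a nominal p under 0.05 (4.03%). Its smallest adjusted p was 0.0557, for lyz, which differed by -8.59 between GFP-only and double-negative cells and by -0.17 between double-positive and mCherry-only cells. The trypsin gene prss1 and the elastase gene cela1.6, both of the exocrine pancreas, followed that pattern, with values between 3.54 and 4.57 on the 4 mCherry+ arrays, against 8.62 to 9.03 in double-negative cells. Among the genes that fell, shtn2 and the lysosomal peptidase gene dpp7 had the smallest interaction p-values. The difference in dpp7 was -3.91 among mCherry+ cells (adjusted p = 0.0169, or 0.0543 with low values raised). The gene shtn2 differed by -4.52 among mCherry+ cells and by 0.12 among mCherry-negative cells (interaction -4.63, adjusted p = 0.169). The interaction contains the difference by which the 83 genes were called, so nothing is read from their number in it.

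**Figure D2:**
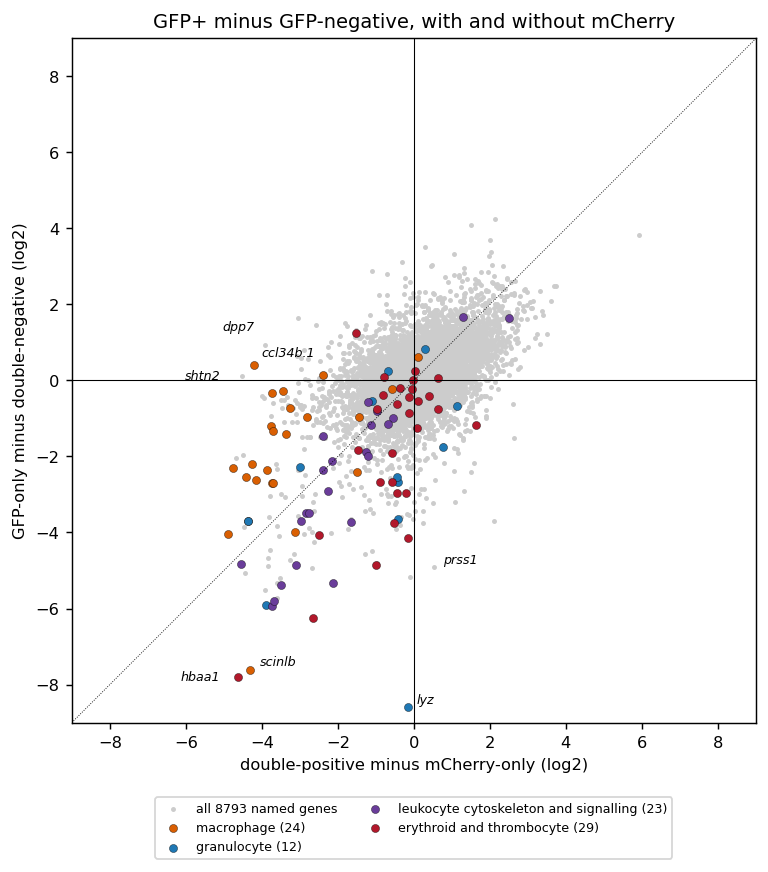
Each point is 1 of 8793 named genes, with the double-positive minus mCherry-only difference (log2) on the horizontal axis and the GFP-only minus double-negative difference (log2) on the vertical axis; coloured points are 4 lists of blood cell genes, and the dotted line marks equal differences. Most macrophage genes lie at the lower left, ccl34b.1 and shtn2 lie near 0 on the vertical axis, and lyz lies near 0 on the horizontal axis.

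Few genes rose in double-positive cells, and none of them belongs to a muscle list. The gene efhd1, which codes for a calcium-binding mitochondrial protein, was at 6.78 and 6.13 in double-positive cells, against 4.72 and 1.57 in mCherry-only cells. The populations did not overlap, but the difference in tumour 2 was larger than in tumour 1 (3.31 ± 0.64 in all, adjusted p = 0.0499). The gene pbldp was at 6.21 and 6.12 in double-positive cells, against 4.23 and 2.77 in mCherry-only cells (2.67 ± 0.51, adjusted p = 0.0499). Neither was called without the tumour as a block (adjusted p = 0.546 for efhd1 and 0.229 for pbldp) or without the tumour 2 arrays of mCherry-only and double-negative cells (0.363 and 0.540). The next by p-value were the LIM domain gene crip2 (2.67, adjusted p = 0.0698), the zinc finger gene znf503 (2.67, adjusted p = 0.0845) and the sodium pump subunit gene atp1b2a (2.51, adjusted p = 0.0875), which did not pass. Other atp1b2a probe sets differed by 0.97, 1.07 and 2.62 (adjusted p from 0.304 to 0.482).

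**Figure D3:**
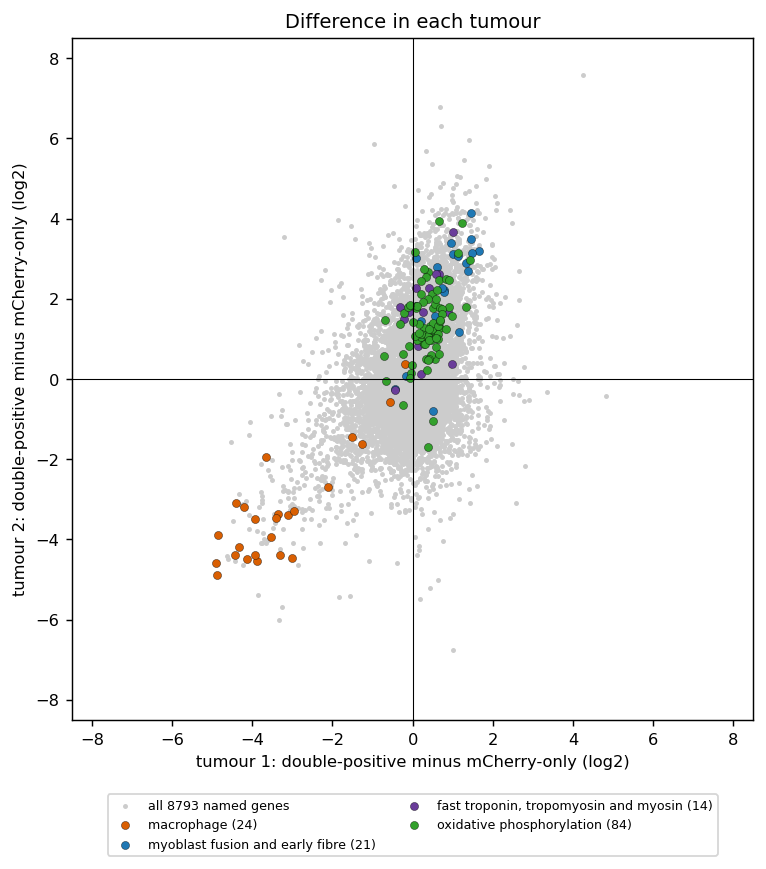
Double-positive minus mCherry-only difference (log2) in tumour 1 (horizontal) and tumour 2 (vertical) for 8793 named genes, with 4 gene lists in colour. Macrophage genes lie at the lower left with a like difference in both tumours (medians -3.60 and -3.48), while myoblast fusion genes lie higher in tumour 2 than in tumour 1 (medians 2.70 and 0.79).

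Muscle genes tended to higher values in double-positive cells, but no member of the 7 muscle lists was called by limma. Of 21 genes of myoblast fusion and the early fibre, 11 were higher and 0 lower with a nominal p under 0.05, against 8.1% of all named genes higher and 5.36% lower, and in 15 both double-positive arrays lay above both mCherry-only arrays, as in 22.1% of all named genes. The list's median difference was 1.55, with 0.79 in tumour 1 and 2.70 in tumour 2. The filamin gene flncb, which acts at the Z disc, was at 6.77 and 7.34 in double-positive cells, against 5.32 and 3.21 in mCherry-only cells (2.79 ± 0.88, adjusted p = 0.260). The fusion receptor gene jam3b was at 8.05 and 8.69 in double-positive cells, against 6.72 and 5.79 in mCherry-only cells (2.12 ± 0.65, adjusted p = 0.254). Genes of the neuromuscular junction showed the same order, with differences of 2.48 in the kinase gene musk and 2.42 in the acetylcholine receptor gene chrna1. The myosin chaperone gene hsp90aa1.1 differed by 2.32.

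The 16 myogenic regulatory factor and Mef2 genes had a median of 1.14. With a nominal p under 0.05, 6 were higher and 0 lower, against 8.1% and 5.36% of all named genes. The myogenin gene myog was at 8.70 and 8.12 in double-positive cells, against 7.01 and 5.31 in mCherry-only cells. The populations were apart in both tumours, and the difference of 2.25 ± 0.61 had an adjusted p of 0.202. The genes of its E protein partners also lay higher in double-positive cells, tcf12 by 2.65 ± 0.82 (adjusted p = 0.256) and tcf3a by 1.78 ± 0.59 (adjusted p = 0.282). All 4 probe sets of tcf12 gave differences between 2.22 and 2.66. The determination gene myod1 went the other way, with low and overlapping values of 4.18 and 1.24 in double-positive cells, against 4.73 and 3.57 in mCherry-only cells (-1.44, adjusted p = 0.421). In the progenitor list the median was 0.18, and 4 of 16 genes were higher with a nominal p under 0.05 (8.1% of all named genes). The receptor gene fgfr4 was at 6.39 and 6.62 in double-positive cells, against 4.79 and 2.40 in mCherry-only cells (2.91 ± 1.01, adjusted p = 0.294). The muscle cadherin gene cdh15 differed by 2.03 (adjusted p = 0.377), of which 0.68 in tumour 1 and 3.37 in tumour 2, while pax7a, a satellite cell factor, differed by -0.83.

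Structural genes of the fibre were high in both populations. The 14 fast troponin, tropomyosin and myosin genes averaged 8.83 and 8.89 in double-positive cells, against 8.53 and 7.26 in mCherry-only cells. Their median difference was 0.87, with 0.24 in tumour 1 and 1.67 in tumour 2. Of the 14, 2 were higher with a nominal p under 0.05 (8.1% of all named genes). The fast myosin heavy chain gene myhz1.3 was at 9.26 and 8.45 in double-positive cells, against 8.26 and 4.79 in mCherry-only cells (2.33 ± 0.72, adjusted p = 0.257). The light chain gene myl1 differed by 1.63 and the troponin gene tnnt3a by 1.60. The 9 parvalbumin genes, calcium buffers of fast fibres, had a median of 0.51 and none was called by limma or reached a nominal p under 0.05. Of these, pvalb4 was at 8.55 and 8.72 in double-positive cells, against 7.42 and 7.94 in mCherry-only cells (0.96, adjusted p = 0.554). In the list of Z disc, scaffold and calcium cycling genes 9 of 19 were higher with a nominal p under 0.05 (8.1% of all named genes). The calcium channel subunit gene cacng1a (2.08), a titin gene, ttn.2 (1.98), and the nebulin gene neb (1.90) led them. The 11 slow and cardiac muscle genes had a median of -0.14, from 1.53 in mybphb to -1.23 in tpm3.

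The size of these muscle differences differed between the tumours and moved with each of the 4 arrays. For fast troponin, tropomyosin and myosin genes the median was 0.40 and 0.50 with the tumour 2 array of double-positive or of mCherry-only cells left out, and 1.43 and 1.50 with that of tumour 1 left out. For Z disc genes it was 0.83 and 0.66 without an array of tumour 2, and 2.07 and 1.74 without one of tumour 1, in the same order. For fusion genes these medians were 1.02 and 1.49, and 2.80 and 2.07. Over the same arrays the macrophage list averaged 4.43 and 4.47 in double-positive cells, against 7.76 and 7.78 in mCherry-only cells, while the erythroid list averaged 3.84 and 3.89 in double-positive cells, against 4.17 and 4.75 in mCherry-only cells. The part of these other transcripts in the muscle differences was not tested.

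**Figure D4:**
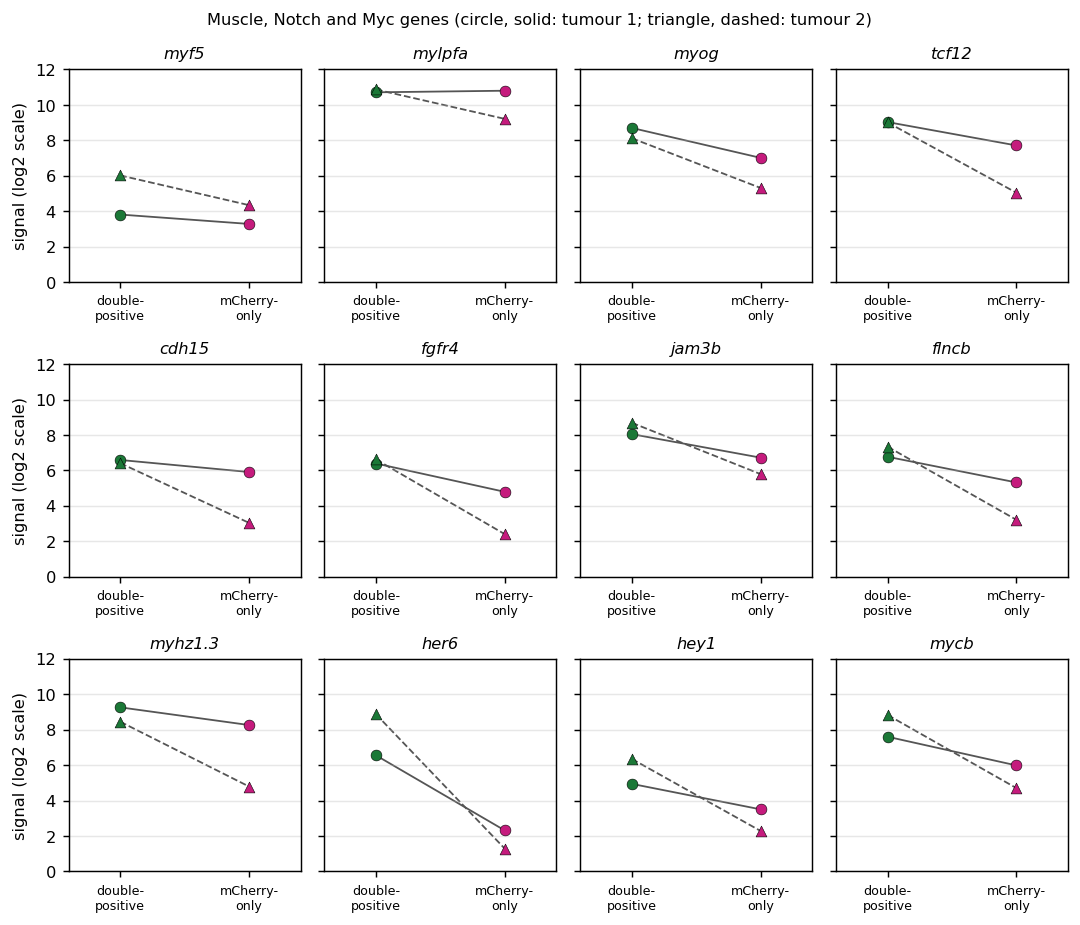
Deposited signal (log2 scale) of 12 muscle, Notch and Myc genes in double-positive (left of each panel, green) and mCherry-only cells (right, magenta), with lines joining the arrays of a tumour (solid and circles for tumour 1, dashed and triangles for tumour 2). The lines fall to the right in both tumours in 11 of the 12 genes and more steeply in tumour 2; in mylpfa tumour 1 is flat, at 10.71 and 10.80.

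Genes of the Notch pathway, in which ligands of neighbouring cells release a receptor fragment that turns on her and hey repressor genes, included the largest difference of any named gene, which did not pass the test. The repressor gene her6 was at 6.55 and 8.87 in double-positive cells, against 2.31 and 1.28 in mCherry-only cells. Its mCherry-only values lay under the lower quartile in both tumours, and the difference was 5.92 ± 1.39 (adjusted p = 0.126). Its level was also high in GFP-only cells, at 7.86 and 7.88, and split in double-negative cells, at 6.89 and 1.22. Without the tumour 2 arrays of mCherry-only and double-negative cells her6 passed the threshold, but that fit has 1 mCherry-only array and 1 residual degree of freedom. The repressor genes hey1 and her9 and the clock gene her7 differed by 2.76, 2.35 and 2.52, with adjusted p-values from 0.191 to 0.255, and the ligand gene dlb by 2.17. The receptor gene notch2 lay lower in double-positive cells, at 5.26 and 5.08, against 6.69 and 6.56 in mCherry-only cells (-1.46, adjusted p = 0.260). Of the 26 Notch genes 6 were higher and 1 lower with a nominal p under 0.05, against 8.1% of all named genes higher and 5.36% lower, with a median of 0.30.

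No gene of the immediate early and Myc list or of the RAS-MAPK feedback list was called by limma. The Myc gene mycb was at 7.60 and 8.83 in double-positive cells, against 5.98 and 4.70 in mCherry-only cells. Both tumours showed the same direction without overlap (2.88 ± 0.65, adjusted p = 0.109), and its copy myca differed by 2.16. Of 25 immediate early and Myc genes 5 were higher and 1 lower with a nominal p under 0.05, against 8.1% of all named genes higher and 5.36% lower. The list's median was 0.295, with 13 genes higher and 10 lower in both tumours, against 32.8% and 27.3% of all named genes. In the RAS-MAPK feedback list 1 of 20 genes was higher and 0 lower with a nominal p under 0.05. That gene was the ETS factor gene etv5b (2.38, adjusted p = 0.259), while the phosphatase gene dusp4 (2.22) and the Sprouty gene spry4 (1.27) did not reach that level. The median of this list was -0.06, with 8 of its genes higher and 6 lower in both tumours.

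Among genes of respiration and protein production 0 were called by limma, and the lists differed in how many members lay higher in double-positive cells. In the oxidative phosphorylation list 57 of 84 genes had both double-positive arrays above both mCherry-only arrays, as in 22.1% of all named genes, and 21 were higher and 0 lower with a nominal p under 0.05, against 8.1% of all named genes higher and 5.36% lower. The median difference was 0.85, with 0.41 in tumour 1 and 1.26 in tumour 2. The complex I subunit gene ndufa11 was at 7.57 and 8.88 in double-positive cells, against 6.35 and 4.98 in mCherry-only cells (2.56, adjusted p = 0.324). Chaperone genes had 9 of 31 higher and 1 lower with a nominal p under 0.05, with differences of 2.79 in hspb8 and 2.57 in hspe1. In the proteasome list 4 of 41 genes and in the ribosomal protein list 1 of 71 were higher with a nominal p under 0.05, near or under the share of all named genes. Without overlap, 15 of the 41 and 28 of the 71 lay above, against 22.1% of all named genes. In both tumours 25 of the 41 were higher and 2 lower, and 51 of the 71 higher and 0 lower, against 32.8% and 27.3% of all named genes. Medians of the proteasome and ribosomal protein lists were 0.64 and 0.58, but 0.24 and 0.12 in tumour 1 and 1.07 and 1.01 in tumour 2. The median over all named genes was 0.09 in tumour 1. With 1 array left out, the oxidative phosphorylation median lay between 0.51 and 1.27 and the ribosomal median between 0.19 and 0.96, lower without either tumour 2 array than without either tumour 1 array.

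The proliferation lists stayed close to all genes. DNA replication genes had a median of 0.30 and mitosis genes 0.21, each with 4 of 43 genes higher with a nominal p under 0.05, near the 8.1% of all named genes. The nuclear lamin gene lmnb2 (2.71, adjusted p = 0.202) and the cyclin gene ccnb1 (1.64) had the largest mitosis differences that were higher. Glycolysis genes had a median of -0.04, with 2 of 29 higher and 3 lower at that level, among them the hexokinase gene hk2 (-1.99). Of all named genes, 8.1% were higher and 5.36% lower at that level.

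Retinoic acid genes, which say how cells take up, make and break down this morphogen, held 1 call among 22. Of all named genes, 0.967% were called. The retinol-binding protein gene rbp2a fell, at 3.90 and 3.94 in double-positive cells, against 6.76 and 8.58 in mCherry-only cells (-3.75 ± 0.59, adjusted p = 0.0208). The call was lost without the tumour as a block (adjusted p = 0.0567), without the tumour 2 arrays of mCherry-only and double-negative cells (0.0888) and with low values raised (0.0667). The retinoic acid hydroxylase gene cyp26a1 was low in both, at 2.91 and 4.60 in double-positive cells, against 1.75 and 1.76 in mCherry-only cells (2.00 ± 0.79, adjusted p = 0.345).

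The lists of other tissues had 0 members called by limma and medians between -0.31 and 0.01. Of 51 collagen and matrix genes 5 were higher and 2 lower with a nominal p under 0.05, near the shares of all named genes, with differences of 2.98 in sparc and 2.74 in the collagen gene col1a2. Of 26 epithelial and skin genes 2 were higher and 2 lower, and the keratin gene krt15 was at 7.12 and 6.86 in double-positive cells, against 4.70 and 2.64 in mCherry-only cells (3.32 ± 1.12, adjusted p = 0.282). The exocrine pancreas, gut and liver list had 1 of 37 genes higher and 0 lower, and the neural and glial list 2 of 28 higher and 3 lower. Of all named genes, 8.1% were higher and 5.36% lower with a nominal p under 0.05. The tubulin gene tubb5 of the neural and glial list was at 6.93 and 8.27 in double-positive cells, against 5.13 and 4.25 in mCherry-only cells (2.91, adjusted p = 0.190).

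**Figure D5:**
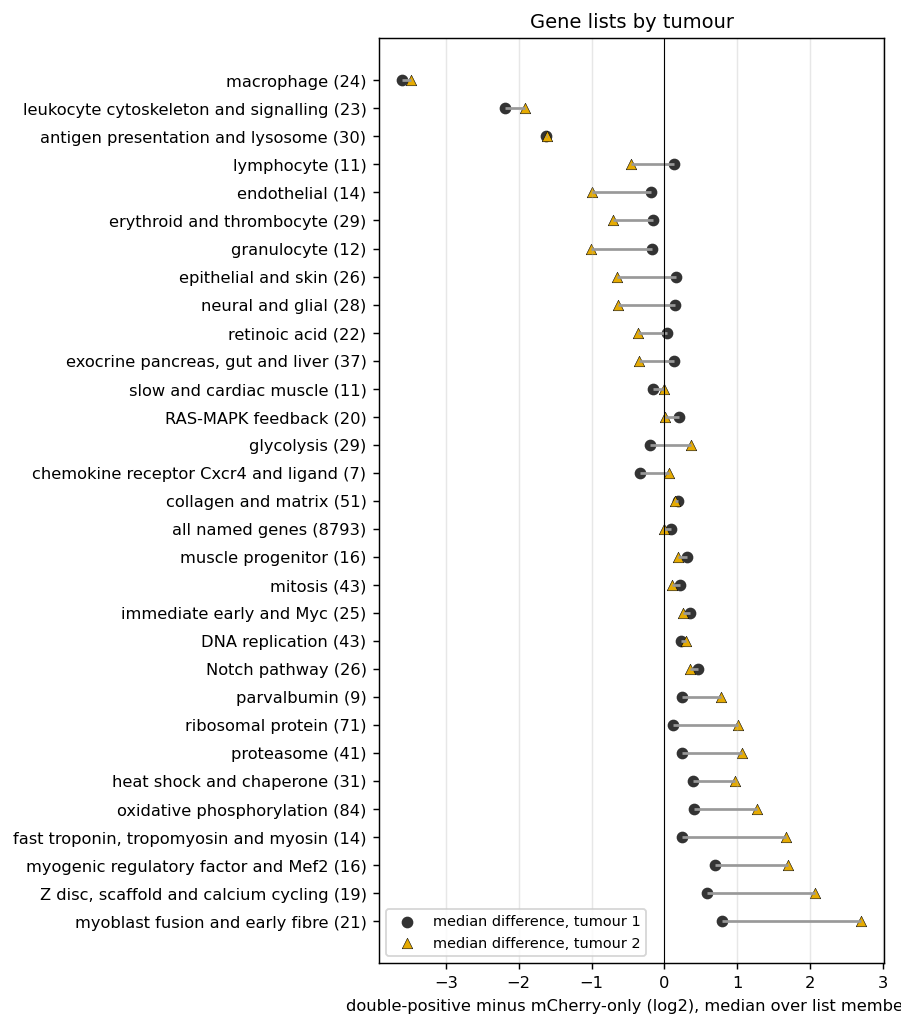
Median double-positive minus mCherry-only difference (log2) of each gene list in tumour 1 (circles) and tumour 2 (triangles), with the number of genes in brackets and a line joining the tumours. The macrophage, leukocyte cytoskeleton and antigen presentation lists lie below -1.5 in both tumours, and the myoblast fusion, fast muscle, Z disc, oxidative phosphorylation and ribosomal lists lie above 0 in both and farther from 0 in tumour 2.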

How the data were processed

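The authors deposited a table of log-scale probe-set signals from Affymetrix zebrafish arrays, read here as log2. How probes were summarised and arrays scaled is not stated in these sources, nor is the log base; another base would rescale differences and leave p-values as they are. Per the labels' protocols, NuGEN's Ovation Pico WTA kit amplified the total RNA, and biotin was the label. Of 15502 probe sets, 10795 had 1 gene symbol in the array annotation, 135 several and 4572 none; 10711 had a RefSeq identifier and 1 symbol was updated. The 8793 named genes, of which 1539 have several probe sets, were each read from the probe set with the highest mean over 8 arrays. Probe sets of multigene families may read close copies.

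The deposited values were not transformed further. With limma 3.58.1 (lmFit and eBayes, R 4.3.3), 1 linear model took all 8 arrays, the 4 populations and the tumour as a block, with 3 residual degrees of freedom and 6.81 of the prior, two-sided tests and Benjamini-Hochberg adjustment over all probe sets. The steps were also run on simulated data in which each probe set had the same spread on all arrays. No array stood apart there, so that run does not cover this feature of the tumour 2 arrays. Tumour numbers pair the populations because arrays of a number come from the same tumour; the deviations of double-positive and mCherry-only arrays from their population means correlated at 0.199 across probe sets. The p-values rest on the residual spread left after the tumour block, from all 4 populations of 2 tumours. Most of their degrees of freedom come from the prior over all probe sets. Array quality and signal over background were not analysed; precision is limited by how few arrays there are. No sequences or coordinates were used.

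The members and the 30 gene lists were chosen with earlier results of these data known. Named are the 15 largest calls in each direction (filled up to 5 by p-value), the reporter genes, per list the called members and up to 4 with the largest difference of the same sign in both tumours, and the 5 smallest interaction p-values; marker genes of the labelled cells and a few contrasting list members are given besides. A called member of the leukocyte cytoskeleton list is not reported here. Alternatives were the fit without the block, only the 4 arrays compared, quantile normalization, leaving out the dimmest 30% of probe sets, raising low values to each array's lower quartile, a prior with an intensity trend, and leaving out each array or the tumour 2 mCherry-only and double-negative arrays together.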

Additional observations from a re-analysis of the deposited data

How the results depend on the processing

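The 133 calls, 4 higher and 129 lower, became 51 without the replicate block (0 higher and 51 lower, all 51 among the 133). With only the 4 arrays compared and the block kept they became 632 (313 higher and 319 lower), in a fit with 1 residual degree of freedom whose prior takes a single variance for all probe sets. Without the tumour 2 mCherry-only and double-negative arrays 78 were called (2 higher and 76 lower), of which 66 were among the 133. With low values raised to the lower quartile 1 was higher and 89 lower. Quantile normalization gave 4 higher and 147 lower, leaving out the dimmest 30% gave 4 and 154, and a prior with an intensity trend gave 6 and 174. Leaving out 1 array gave 0 to 199 calls (0 to 29 higher, 0 to 170 lower): 0 without either double-positive or either mCherry-only array, 111 without either GFP-only array and 199 without either double-negative array. A left-out array leaves its population with 1 array, which is assumed to vary like the others. With the tumour as a block, leaving out either GFP-only array gives the same fit of the double-positive minus mCherry-only difference. The same holds for the double-negative arrays, so the equal counts are not separate checks. The fit without the tumour 2 mCherry-only and double-negative arrays leaves each of these populations with 1 array, and it has 1 residual degree of freedom. The interaction was called for 0 probe sets and 0 without the block, for 3 without the dimmest 30%, 1 with raised low values, 3 with the trend and 7 without the pair of tumour 2 arrays, and for 0 to 21 when 1 array was left out. Of the 83 genes that fell, 37 were called without the block, 42 without that pair and 49 with raised low values. The mean double-positive level of 21 of the 83 lay under 3.64, the lower quartile of those arrays. By definition about 25% of all probe sets lie under a lower quartile, so the count is near that share and nothing is read from it. Whether the bottom of the scale limits the size of these differences was not tested. The cause of the changes in the calls between settings was not tested either. Of the genes named here, none reversed its direction past the threshold under any of these settings.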

Other observations

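The fibrinogen gene fgg was high on 1 array alone, at 3.81 and 4.11 in double-positive cells, against 2.81 and 10.86 in mCherry-only cells. It was chosen after its values were seen, its difference of -2.88 did not pass the test (adjusted p = 0.557), and it turned to 1.27 when that array was left out. The receptor gene cxcr4a was listed at 0.00 on both double-positive arrays, against 1.71 and 0.67 in mCherry-only cells. Of the 133 probe sets called, 35 carried no single gene symbol (33 lower and 2 higher) and are not named here. Other probe sets of col5a2a (-1.23), igf2bp3 (-0.04) and pygmb (0.05) did not follow the probe sets that stood for these genes (2.45, 1.71 and 1.61).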
